A study of Mus musculus with 12 samples.

Results

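Pramel genes are the mouse members of the PRAME-like family, which takes its name from a human tumour antigen. The genes described here were chosen by a Pramel name or accession among the probes of the array design. They also needed the scanner software's flag for a signal well above background in either channel on 2 or more of 12 arrays. Of 48 Pramel genes in the RefSeq table, 11 had a probe by name or accession. Pramel29 and Pramel34 had a probe only under an older name, C87977 and C87414, which the rule does not reach. Both of those probes were above background on 0 arrays. Of the 11 genes 8 passed, each with 1 probe printed as 1 spot. The 8 members were Pramel7 and Pramel6 on chromosome 2, Pramel12, Pramel4 and Pramel13 on chromosome 4, and Pramel37, Pramel39 and Pramel48 on chromosome 5. In all, 20980 named genes or transcripts passed the same flag. The array design calls 5 of them by older names: Pramel12 is 4732496O08Rik there, Pramel13 is Pramef12, Pramel37 is BC061212, Pramel39 is A430089I19Rik and Pramel48 is D5Ertd577e.

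The arrays were 2-colour Agilent arrays of mouse embryonic stem (ES) cells. Per the labels the RNAs came from wild-type ES cells, from cells without Dicer1 of clones 27G5 and 27H10, and from each of these clones with added DNMT1 or with added DNMT3a,3b. Dicer is the nuclease that makes microRNAs, and the Dnmt enzymes methylate DNA. All cells grew without further treatment on gelatin-coated plates in medium with leukemia inhibitory factor (LIF), and the promoter that drives the added genes is not given in the sources used here. Each of the 6 ratios (Dicer-null over wild type, Dnmt1-labelled over Dicer-null and Dnmt3a,3b-labelled over Dicer-null, in each clone) was measured on 2 arrays with the dyes exchanged. Values are mean log2 ratios ± SD over the 2 clones, and calls rest on limma with Benjamini-Hochberg adjustment over 30166 probes, at an adjusted p below 0.05.

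PRAME-like proteins are built of leucine-rich repeats, and some of them are known to serve as subunits that bring target proteins to Cullin-2 ubiquitin ligases. The genes lie in tandem clusters and are known for expression in the germ line, the oocyte and the early embryo. Pramel7 is known from the inner cell mass, where its protein directs the degradation of Uhrf1, the partner that Dnmt1 needs to maintain DNA methylation, and in ES cells it acts in self-renewal downstream of LIF and Stat3.

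The results turn on a pair of genes on chromosome 2 and a pair on chromosome 5, so the first 30 bases of their 60-base probes are shown to tell which transcripts were measured. The probe of Pramel7 lies at chr2:87332937-87332996 on the minus strand, that of Pramel6 at chr2:87354305-87354364 on the plus strand, that of Pramel37 at chr5:94053736-94053795 on the minus strand and that of Pramel39 at chr5:94572651-94572710 on the plus strand (build mm7, as the file headers give it; whether a probe lies in coding sequence or a UTR was not determined).
Pramel7: cagttctttgtacacagtaatggagggata
Pramel6: tgctatgaggattacaagatacttaaagac
Pramel37: tgtctatggcaagagagccagactttgttt
Pramel39: caggcaatgtacagatacttggaaaggaaa
The longest run of bases that any of the 8 probes shared with another of them was 8, so the members' probes do not overlap in sequence. Binding of a probe to the transcript of a close relative was not tested, because no transcript sequences were used here.

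RefSeq promoter windows (GRCm38.p6, 250 bases before to 50 after the annotated start) were found for 7 of the 8 genes, all but Pramel12. The windows of Pramel7, at chr2:87492369-87492668 on the minus strand, and Pramel6, at chr2:87506315-87506614 on the plus strand, are shown because both genes were compared between cells labelled for different DNA methyltransferases. Capitals mark CpG dinucleotides, the sites where these enzymes methylate.
Pramel7: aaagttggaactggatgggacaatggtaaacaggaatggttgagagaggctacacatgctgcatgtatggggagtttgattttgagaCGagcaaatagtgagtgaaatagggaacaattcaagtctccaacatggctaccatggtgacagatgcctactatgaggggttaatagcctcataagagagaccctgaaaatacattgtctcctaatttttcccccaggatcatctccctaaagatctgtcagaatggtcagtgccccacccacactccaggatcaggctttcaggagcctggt
Pramel6: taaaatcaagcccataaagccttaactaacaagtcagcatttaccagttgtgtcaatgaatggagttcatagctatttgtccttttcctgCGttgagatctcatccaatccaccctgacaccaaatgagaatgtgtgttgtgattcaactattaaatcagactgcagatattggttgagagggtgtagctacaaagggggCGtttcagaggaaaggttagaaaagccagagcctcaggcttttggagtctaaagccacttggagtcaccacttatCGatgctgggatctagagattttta
The window of Pramel7 held 1 CpG and that of Pramel6 held 3. Over all 32851 windows the median was 7, 14.1% had at most 1 and 31.4% had at most 3. Pramel37, Pramel39 and Pramel48 had 1 CpG each, Pramel4 had 2 and Pramel13 had 7. The pattern TTCNNNGAA, of the type Stat3 binds, was in none of the 7 windows and in 8.3% of all windows (the pattern reads the same on both strands).

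The windows of Pramel37 and Pramel39 were 87.3% the same letter for letter, against 21.0% to 30.7% for every other pair of the 7 genes. Their 240 bases nearest the start (190 before to 50 after), at chr5:94070496-94070735 and chr5:94306747-94306986, both on the minus strand of GRCm38.p6, differed at 1 position, which is in capitals.
Pramel37: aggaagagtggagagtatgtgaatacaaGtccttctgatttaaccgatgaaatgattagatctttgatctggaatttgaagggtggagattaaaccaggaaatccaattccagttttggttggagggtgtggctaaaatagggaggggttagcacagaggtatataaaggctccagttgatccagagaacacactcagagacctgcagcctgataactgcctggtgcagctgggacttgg
Pramel39: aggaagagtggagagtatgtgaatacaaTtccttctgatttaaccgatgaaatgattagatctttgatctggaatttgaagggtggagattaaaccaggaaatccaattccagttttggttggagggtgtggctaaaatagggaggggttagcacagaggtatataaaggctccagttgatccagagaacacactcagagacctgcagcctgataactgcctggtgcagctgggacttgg
Both stretches hold TATATAAA, a TATA-box type motif, which 1.4% of all windows hold on either strand and which none of the other 5 windows held. The shorter TATAAA, part of it, was in 13.6% of all windows and again in these 2 of 7. Of 37 Pramel genes with a window, 3 were at least 90% the same as Pramel37 over this stretch: Pramel37 itself, Pramel39 and Pramel50, which has no probe by the rule. Pramel39 and Pramel48 have opposite strands in mm7 and in GRCm38.p6, so which copy of the chromosome 5 cluster a probe reads is uncertain.

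The median signal of an array lay between 112 and 135 in green and between 234 and 334 in red, and 62.1% to 69.1% of spots were well above background. The 4 arrays with wild-type RNA were on 1 slide, and each clone's arrays with Dnmt-labelled RNA were on a slide of their own, so clone and slide cannot be told apart there. Dicer1 fell by 0.53 over wild type (SD 0.04, n = 2; limma adjusted p = 0.00383) and fell by a further 0.63 (SD 0.09) and 0.77 (SD 0.08) in the Dnmt1-labelled and Dnmt3a,3b-labelled RNA. The probe for Dnmt1 gave 0.27 ± 0.23 in the Dnmt1-labelled RNA (limma adjusted p = 0.109), and in the Dnmt3a,3b-labelled RNA the probes gave -1.03 ± 0.92 for Dnmt3a (adjusted p = 0.0831) and -1.04 ± 0.59 for Dnmt3b (adjusted p = 0.0343). The labels' overexpression was therefore not seen with these probes, whose position relative to the added genes is unknown, and Dnmt3b was called lower instead. In the Dnmt1-labelled RNA Dnmt3a gave -1.34 ± 0.58 (limma adjusted p = 0.0417) and Dnmt3b -1.06 ± 0.40 (adjusted p = 0.0317). Over wild type Dnmt1 gave 0.29 ± 0.04 (adjusted p = 0.0621), Dnmt3a -0.88 ± 0.24 (adjusted p = 0.0911) and Dnmt3b -1.23 ± 0.30 (adjusted p = 0.0113). The RNAs are named by their labels throughout. All 7 measured ES cell markers were above background in all 4 kinds of RNA, and 4 of them rose over wild type, with a summed normalised signal of 149670 to 152100 in wild type and 156100 to 285640 in Dicer-null RNA. Of 9 trophoblast markers 6 fell over wild type and 1 rose, and then 5 and 6 rose in the Dnmt1-labelled and Dnmt3a,3b-labelled RNA; their summed normalised signal was 55140 to 117470 in wild type, 14846 to 32507 in Dicer-null, 68726 to 174950 in Dnmt1-labelled and 69326 to 139890 in Dnmt3a,3b-labelled RNA. Of 9 fibroblast markers 5 fell and 3 rose over wild type, with a summed signal of 30965 to 46710 in wild type and 49158 to 76332 in Dicer-null RNA, where Postn was above background on no array. Such a sum weighs the brightest probes most. Among these markers Col1a1 gave -4.09 ± 0.13 and Col1a2 -2.34 ± 0.09 over wild type, whereas Dcn gave 2.02 ± 0.28. Of 8 primitive endoderm markers 4 fell and 1 rose, with sums of 2766 to 2942 and 1259 to 1390. Beside these marker counts, 19.3% of all 30166 probes rose and 19.1% fell over wild type. In the Dnmt1-labelled RNA 11% of all probes rose and 10.7% fell, and in the Dnmt3a,3b-labelled RNA 10.2% and 10.7%. The part of these markers in the Pramel results was not tested, and in bulk RNA more cells of a kind cannot be told from more RNA per cell.

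Pramel7 and Pramel6 rose in Dicer-null cells over wild type, far more in clone 27G5 than in clone 27H10. The log2 ratio of Pramel7 was 3.18 and 3.45 on the arrays of clone 27G5, against 0.95 and 1.13 on those of clone 27H10. Every array was above 0 and the clones did not overlap, so that the rise was 9.95-fold in one clone and 2.06-fold in the other. Over both clones Pramel7 rose by 2.18 ± 1.61 (SD, n = 2; limma adjusted p = 0.0217). Pramel6, its neighbour on chromosome 2 and likewise known from naive ES cells, gave 1.90 and 1.71 in clone 27G5, but 0.57 and 0.59 in clone 27H10. The clones did not overlap for Pramel6 either, with 3.49-fold in 27G5 and 1.50-fold in 27H10, and its mean rise was 1.19 ± 0.86 (limma adjusted p = 0.0267). On 1 of the 2 arrays of clone 27H10 the wild-type signal of Pramel6 was not well above background. Both calls were lost with the RNAs that ratios share entered in the model (limma adjusted p = 0.400 for Pramel7 and 0.307 for Pramel6). Without the ratio of clone 27G5 the rises were 1.04 and 0.58, and 1 ratio alone leaves no spread to judge a call by. The scanner software's log ratio, which adds no offset to dim signals, gave 2.63 for Pramel7 and 2.29 for Pramel6.

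**Figure D1:**
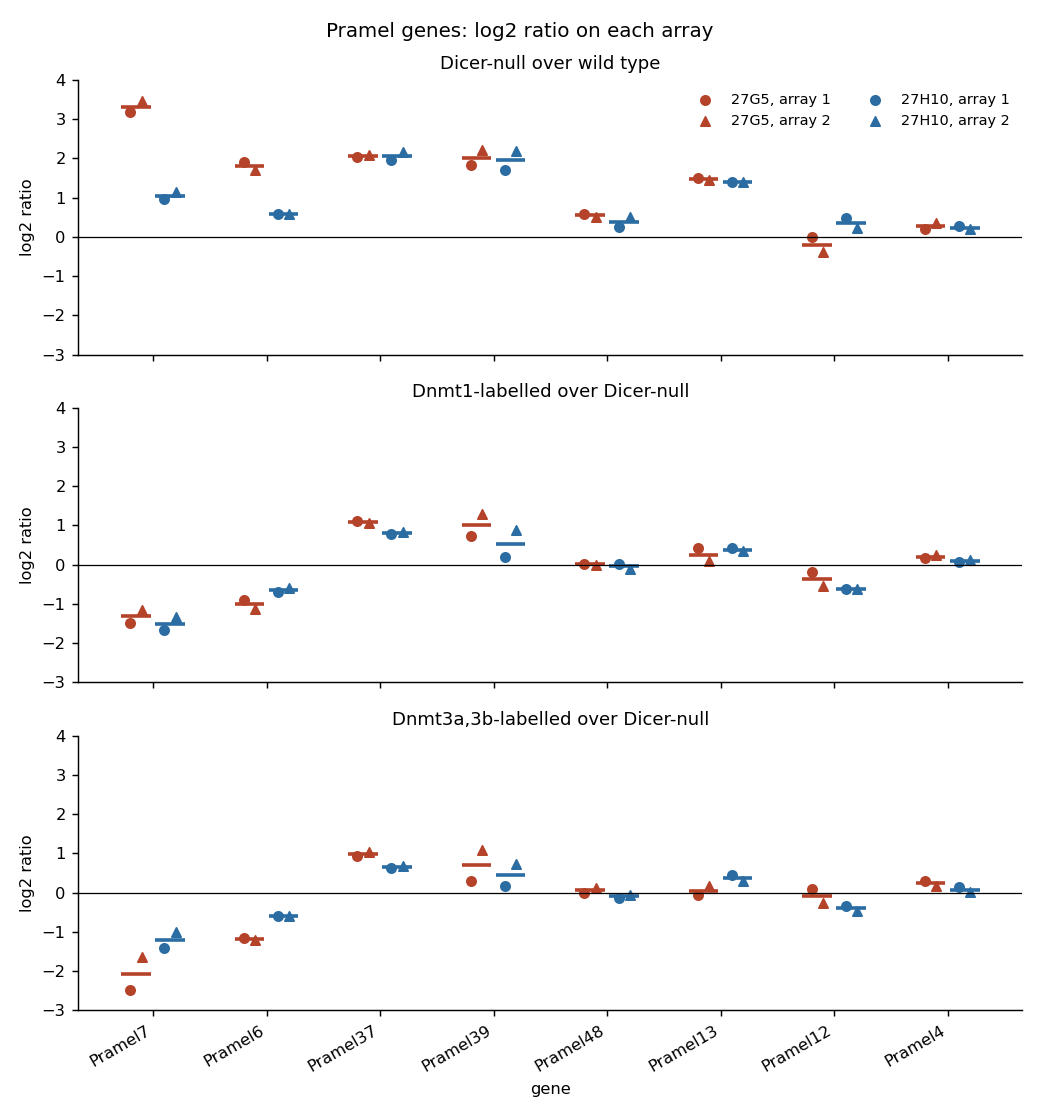
Log2 ratio (vertical axis) of the 8 Pramel genes (horizontal axis) on each array, in 1 panel per comparison; points are single arrays, lines are clone means, red is clone 27G5 and blue clone 27H10. Pramel7 is at 3.31 in clone 27G5 and 1.04 in clone 27H10 over wild type, whereas the clone means of Pramel37 are 2.06 and 2.06.

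The difference between clones (27G5 minus 27H10) over wild type was 2.27 for Pramel7 and 1.22 for Pramel6. By size, that of Pramel7 ranked 1 among all 30166 probes and that of Pramel6 ranked 18; the median over all probes was 0.11. A difference above 1 log2 unit occurred in 0.162% of probes (49 of 30166), and these were the only 2 of the 8 members past it. No test was made of the clone difference, because the arrays of a clone hold the same RNAs. All 4 arrays behind it were on 1 slide. The normalised log2 signal of Pramel7 in Dicer-null RNA of clone 27G5 ran from 11.12 to 11.32 over 6 arrays (median 11.22), and in clone 27H10 from 8.38 to 8.63 (median 8.54). The ranges lie far apart, and wild type, at 7.46 to 7.94 on 4 arrays, lay below both. The difference in level between the Dicer-null RNAs was 2.71 for Pramel7 on the arrays with Dnmt-labelled RNA and 2.64 on those with wild-type RNA. On the arrays with Dnmt-labelled RNA each clone had a slide of its own, so clone and slide cannot be told apart in the first value. For Pramel6 the corresponding differences were 1.84 and 1.73.

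**Figure D2:**
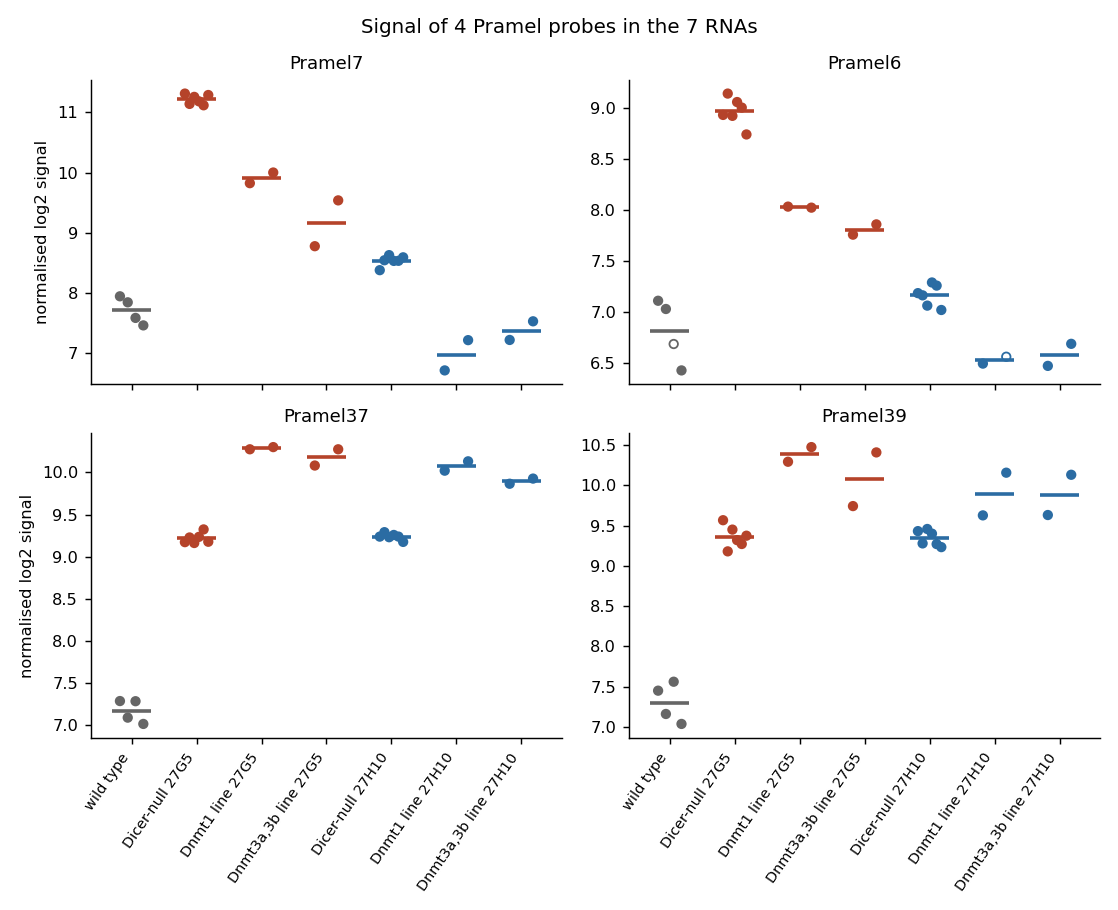
Normalised log2 signal (vertical axis, a scale per panel) of 4 probes in the 7 RNAs (horizontal axis); each point is 1 channel of 1 array, open where the signal was not well above background, and lines are means. For Pramel7 the Dicer-null RNA of clone 27G5 is at 11.22 and that of clone 27H10 at 8.53, and for Pramel37 both clones are near 9.2.

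Relative to Dicer-null cells, both genes of the chromosome 2 pair were lower on all 8 arrays with Dnmt-labelled RNA, without passing the test. In the Dnmt1-labelled RNA Pramel7 gave -1.49 and -1.14 in clone 27G5, against -1.67 and -1.33 in clone 27H10. Every array was below 0 and the clones overlapped, with a mean of -1.41 ± 0.13 (limma adjusted p = 0.108). In the Dnmt3a,3b-labelled RNA it gave -2.49 and -1.65 in 27G5 and -1.41 and -1.01 in 27H10, lower in 27G5 than in 27H10, with a mean of -1.64 ± 0.61 (adjusted p = 0.0759). Pramel6 gave -0.90, -1.12, -0.69 and -0.60 in the Dnmt1-labelled RNA, the first pair from clone 27G5 and the lower one (mean -0.83 ± 0.26; adjusted p = 0.107). On the array that gave -0.60 the Dnmt1-labelled signal was not well above background. With Dnmt3a,3b its values were -1.17, -1.20, -0.59 and -0.60, so the clones did not overlap (mean -0.89 ± 0.41; adjusted p = 0.0905). The fit shares one estimate of the spread over the 3 comparisons, so the clone spread of this pair over wild type also enters these p values. With the log ratio of the scanner software both genes passed in both comparisons (Pramel7 -1.84, adjusted p = 0.0457, and -1.96, adjusted p = 0.0388; Pramel6 -1.57, adjusted p = 0.00917, and -1.51, adjusted p = 0.0106).

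Added up along the design, the ratio of Pramel7 to wild type in clone 27G5 went from 3.31 in Dicer-null to 2.00 in Dnmt1-labelled and 1.25 in Dnmt3a,3b-labelled cells. In clone 27H10 the same sums went from 1.04 to -0.46 and -0.17, so the Dnmt-labelled lines of that clone were at or below wild type and those of 27G5 were above it. Pramel6 showed the same order, with 1.80, 0.79 and 0.62 in 27G5 and 0.58, -0.06 and -0.01 in 27H10, where the wild-type and Dnmt1-labelled signals were each well above background on 1 of 2 arrays. These sums share the Dicer-null RNA and have no test of their own.

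**Figure D3:**
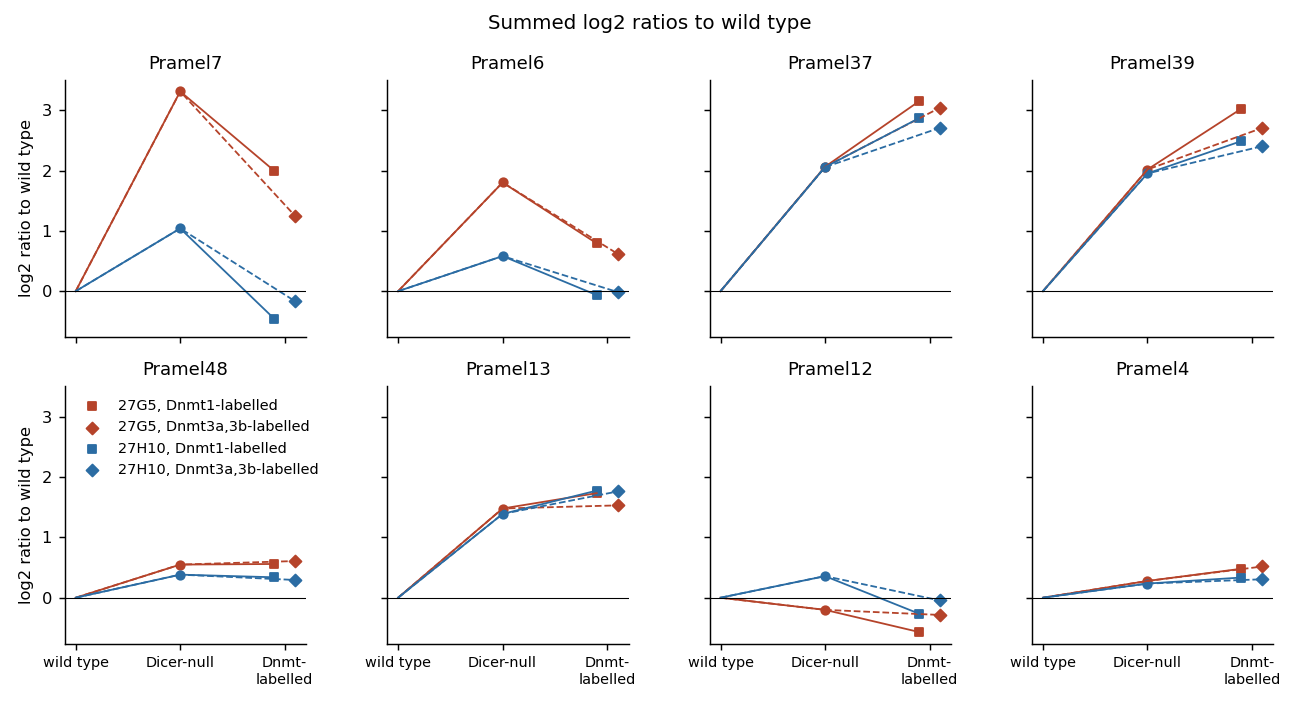
Log2 ratio to wild type (vertical axis), with wild type set at 0, for each gene and clone; circles are Dicer-null cells, squares Dnmt1-labelled and diamonds Dnmt3a,3b-labelled cells, each the sum of its measured ratios. Pramel7 and Pramel6 turn down after the Dicer-null step (Pramel7 in 27G5 from 3.31 to 2.00 and 1.25), and Pramel37 and Pramel39 turn up (Pramel37 in 27G5 from 2.06 to 3.15 and 3.04).

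The chromosome 5 pair rose about equally in both clones and rose again in both kinds of Dnmt-labelled RNA. Over wild type Pramel37 gave 2.04 and 2.09 in clone 27G5, against 1.96 and 2.16 in clone 27H10. The clones overlapped, and the mean of 2.06 with an SD under 0.01 is a 4.17-fold rise (limma adjusted p = 0.000265). Pramel39 gave 1.82 and 2.22 in clone 27G5, against 1.71 and 2.20 in clone 27H10. It was higher on the array numbered 2 of each clone, and its mean of 1.99 ± 0.05 is a 3.96-fold rise (adjusted p = 0.000406). With the scanner software's log ratio the rises over wild type were 2.91 and 2.67. Both calls over wild type held in all 16 alternatives tried.

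In the Dnmt1-labelled RNA Pramel37 rose further over Dicer-null cells, with 1.10 and 1.07 in clone 27G5, against 0.78 and 0.84 in clone 27H10. All 4 arrays were above 0 and clone 27G5 was the higher (mean 0.95 ± 0.19; limma adjusted p = 0.00634). Pramel39 gave 0.73 and 1.30 in 27G5 and 0.20 and 0.88 in 27H10, with a mean of 0.77 ± 0.33 (adjusted p = 0.0147), and the clones overlapped. With Dnmt3a,3b in place of Dnmt1, Pramel37 gave 0.92, 1.04, 0.64 and 0.67, the first pair from clone 27G5 (mean 0.82 ± 0.23; adjusted p = 0.00907), with no overlap of the clones. Pramel39 gave 0.29, 1.09, 0.17 and 0.73 in the same order (mean 0.57 ± 0.17; adjusted p = 0.0326). The spread of Pramel39 lay between the dye orientations: on the arrays numbered 1 alone it gave 0.46 (adjusted p = 0.0624) and 0.23 (adjusted p = 0.245). With the RNAs that ratios share entered in the model, the pair's 4 calls in the Dnmt-labelled RNA were lost (adjusted p from 0.0557 to 0.213). In single clones the ratio in the Dnmt3a,3b-labelled RNA was 0.98 (27G5) and 0.65 (27H10) for Pramel37, and 0.69 and 0.45 for Pramel39. In the Dnmt1-labelled RNA it was 1.09 and 0.81 for Pramel37, and 1.01 and 0.54 for Pramel39. Each of these is 1 ratio and has no spread of its own.

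Pramel48, the third gene of the chromosome 5 cluster, stayed dim. Its signal was well above background on none of the 4 wild-type arrays and on all 4 paired Dicer-null signals, at a mean normalised log2 signal of 6.21 and 6.68. The ratios were 0.58 and 0.51 in clone 27G5, against 0.25 and 0.51 in clone 27H10, all above 0, with a mean of 0.47 ± 0.12 (limma adjusted p = 0.00756). Against the lowest signal that counts as above background, this is at least 1.31-fold higher in Dicer-null cells; the scanner software's log ratio gave 2.02. The call was lost with shared RNAs modelled (limma adjusted p = 0.215). In single clones the ratio was 0.55 (27G5) and 0.38 (27H10), and 1 ratio alone leaves no spread to judge a call by. Its ratios in the Dnmt-labelled RNA were -0.02 ± 0.04 (adjusted p = 0.904) and -0.01 ± 0.10 (adjusted p = 0.919).

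On chromosome 4, Pramel13, known as Pramef12 for a role in spermatogenesis, rose in both clones. Its log2 ratios over wild type were 1.50 and 1.46 in clone 27G5, against 1.40 and 1.38 in clone 27H10. The values lay close together on all 4 arrays, and the mean of 1.44 ± 0.06 is a 2.70-fold rise (limma adjusted p = 0.000462), a call that held in all 16 alternatives. In the Dnmt-labelled RNAs it gave 0.32 ± 0.09 (adjusted p = 0.0718) and 0.21 ± 0.23 (adjusted p = 0.183). No spot of Pramel13 was saturated.

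Pramel12 did not pass the test in any comparison over all 4 arrays, and its clones lay on opposite sides of 0 over wild type. It gave -0.01 and -0.39 in clone 27G5, against 0.49 and 0.23 in clone 27H10 (mean 0.08 ± 0.40; limma adjusted p = 0.744). In the Dnmt1-labelled RNA it was below 0 on all 4 arrays (mean -0.50 ± 0.18; adjusted p = 0.0790; it passed on the arrays numbered 2 alone, adjusted p = 0.0331), and in the Dnmt3a,3b-labelled RNA on 3 of 4 (mean -0.24 ± 0.23; adjusted p = 0.322).

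Pramel4 was at the edge of detection. It passed the flag on 8 arrays, all of them with Dnmt-labelled RNA, and on the 4 arrays with wild-type RNA neither channel was well above background. Its ratio there, 0.26 ± 0.03, carried an adjusted p of 0.0463 (limma), but with neither signal well above background it gives no fold, and the call was lost in 7 of 15 alternatives; the scanner software's log ratio gave 1.68. In the Dnmt-labelled RNAs it gave 0.15 ± 0.07 (adjusted p = 0.216) and 0.16 ± 0.12 (adjusted p = 0.206). Just outside the rule, Pramel27 was flagged above background on 1 array, with background-subtracted signals of at most 45.3, and Pramel1 and Pramel32 on none, with highest signals of 21.6 and 35.7. The dimmest members, Pramel4 and Pramel48, had highest signals of 117 and 123.

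Counted over the members, 7 of 8 rose over wild type and none fell, where 19.3% of all 30166 probes rose and 19.1% fell; the 7 include Pramel4, whose signals there were not well above background. The median of the 8 was 1.31, against 0.01 over all probes. In the Dnmt1-labelled RNA 2 of 8 rose and none fell, where 11% of all probes rose and 10.7% fell, and the members' median was 0.07. Again 2 of 8 rose in the Dnmt3a,3b-labelled RNA and none fell, against 10.2% and 10.7% of all probes, with a median of 0.07. No member's clones differed by more than 1 log2 unit in the Dnmt-labelled comparisons, where 1.89% and 0.52% of all probes did; the difference of Pramel7 in the Dnmt3a,3b-labelled RNA, -0.86, ranked 309. These counts describe 8 genes that had to be detected to be counted. The Dnmt-labelled comparisons share their Dicer-null RNA with the comparison over wild type, so their values for a gene are not independent of each other.

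**Figure D4:**
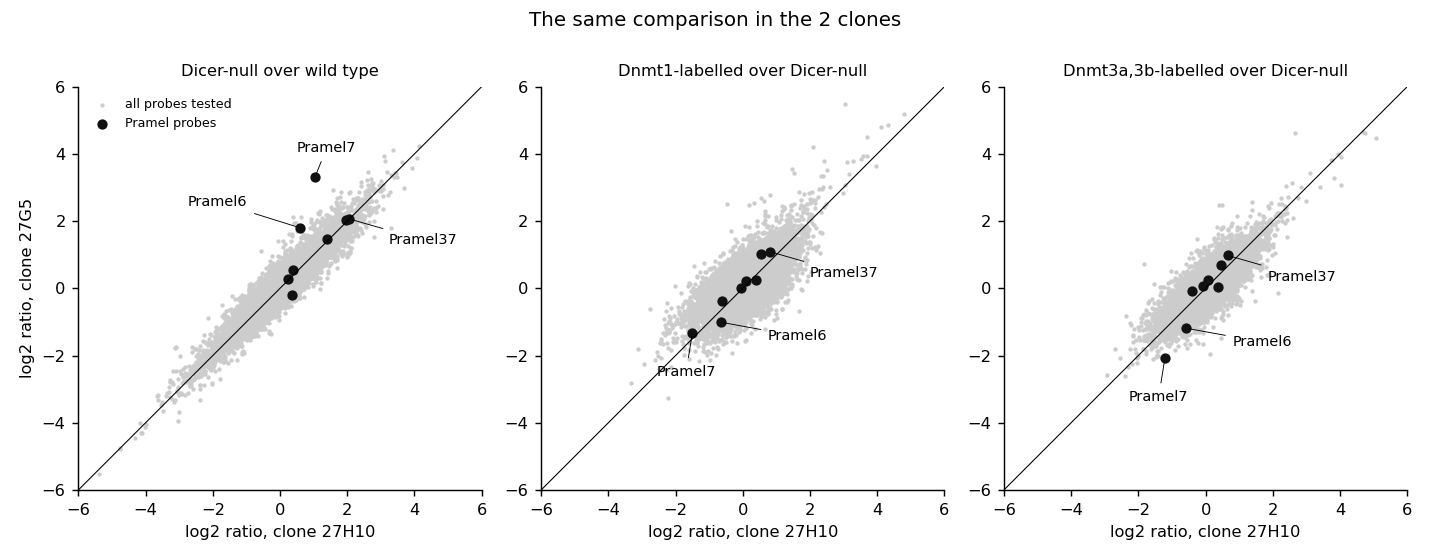
Log2 ratio in clone 27G5 (vertical axis) against clone 27H10 (horizontal axis) for all 30166 probes tested (grey) and the 8 Pramel probes (black), in 1 panel per comparison, with the line of equal values. In the first panel Pramel7 (3.31 against 1.04) and Pramel6 (1.80 against 0.58) lie above the line and Pramel37 lies on it.

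Relatives that the rule does not reach behaved in different ways. Oog1, an oogenesin expressed in oocytes, rose over wild type by 0.33 ± 0.19 (limma adjusted p = 0.0331), and Oog4 gave 0.18 ± 0.05 (adjusted p = 0.0880) by the probe that was above background. AA792892, listed as a relative of the family, rose by 0.47 ± 0.03 (adjusted p = 0.0367). In the Dnmt1-labelled and Dnmt3a,3b-labelled RNAs AA792892 gave -0.04 ± 0.37 (adjusted p = 0.857) and -0.07 ± 0.11 (adjusted p = 0.751). A probe for LOC625240, an unnamed transcript model at the chromosome 5 cluster, rose by 2.01 ± 0.18 (adjusted p = 0.000580), close to the value of Pramel37 and Pramel39. In the Dnmt-labelled RNAs it gave 0.35 ± 0.25 (adjusted p = 0.161) and 0.31 ± 0.35 (adjusted p = 0.202). Of the Cullin-2 ligase and Uhrf1 list, 1 of 8 genes rose and 2 fell over wild type, where 19.3% of all probes rose and 19.1% fell. Uhrf1, whose protein is the target of Pramel7, gave 0.08 ± 0.04 (limma adjusted p = 0.399). This value is RNA and does not show the level of the protein. Uhrf2, a relative of Uhrf1, fell by 0.72 (SD 0.05, adjusted p = 0.00118). Vhl, another subunit that brings target proteins to Cullin-2 ligases, rose by 0.88 ± 0.34 (adjusted p = 0.00366). Eloc, the elongin that joins such a subunit to the ligase, fell by 0.57 (SD 0.01, adjusted p = 0.0298). In each Dnmt-labelled comparison 1 of the 8 rose and 0 fell, against 11% and 10.2% of all probes that rose, and the gene was Uhrf2, with 0.66 ± 0.07 (adjusted p = 0.00518) and 0.43 ± 0.01 (adjusted p = 0.0140).

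Among 17 measured genes of the LIF-Stat3 and naive pluripotency list, 11 rose over wild type and none fell (median 0.64), where 19.3% of all probes rose and 19.1% fell (median 0.01). They included Tbx3 at 1.73 ± 0.15 (limma adjusted p = 0.000264), Klf2 at 1.02 ± 0.02 (adjusted p = 0.000429) and Nr0b1 at 1.24 ± 0.17 (adjusted p = 0.000842), all factors of the naive state. Stat3 itself gave 0.33 ± 0.28 (adjusted p = 0.123). Of 8 measured 2-cell-stage genes 6 rose and none fell (median 1.92). Tcstv1, at 2.25 ± 0.23, had the smallest adjusted p of them (0.000239; limma). In the Dnmt1-labelled RNA 3 of the 17 LIF-Stat3 genes rose and 2 fell, and 2 of the 8 2-cell-stage genes rose, Tcstv1 by 0.97 ± 0.17 (adjusted p = 0.00652) and Tcstv3 by 0.95 ± 0.13 (adjusted p = 0.00842). In the Dnmt3a,3b-labelled RNA 3 of the 17 rose and none fell, and 2 of the 8 rose, again Tcstv1 and Tcstv3. Of all probes, 11% rose and 10.7% fell in the Dnmt1-labelled RNA, and 10.2% and 10.7% in the Dnmt3a,3b-labelled RNA.

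Of 16 germline genes silenced by DNA methylation, 4 rose and 3 fell over wild type, 7 rose and none fell in the Dnmt1-labelled RNA, and 4 rose and 2 fell in the Dnmt3a,3b-labelled RNA. Over wild type Hormad1 rose by 2.40 ± 0.10 (limma adjusted p = 0.000143) and Tdrd1 fell by 2.10 (SD 0.11, adjusted p = 0.000250). Stra8, a meiotic gene, rose by 1.49 ± 0.05 (adjusted p = 0.000927), 1.57 ± 0.18 (adjusted p = 0.00340) and 1.58 ± 0.35 (adjusted p = 0.00368) in the 3 comparisons. Of 15 retinoic acid signalling genes, a pathway that human PRAME represses, 2 rose and 6 fell over wild type, 3 rose and 3 fell in the Dnmt1-labelled RNA, and 3 rose and 2 fell in the Dnmt3a,3b-labelled RNA. Of 11 oocyte-restricted genes 3 rose and 3 fell over wild type, and 0 rose and 3 and 2 fell in the Dnmt-labelled RNAs. Khdc3, of the maternal complex of the egg, rose by 1.69 ± 0.25 (adjusted p = 0.000583) and then fell by 1.27 (SD 0.06; adjusted p = 0.00465) and by 1.12 (SD 0.26; adjusted p = 0.00625). Beside the counts of these 3 lists, 19.3% of all probes rose and 19.1% fell over wild type, 11% and 10.7% in the Dnmt1-labelled RNA, and 10.2% and 10.7% in the Dnmt3a,3b-labelled RNA.

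The genes whose 6 ratios lay nearest to those of Pramel7 among 14569 candidates, by the root mean square difference, were Mitf (0.62), Gpr182 (0.66), Klb (0.71), Kdm5d (0.71) and Slc1a1 (0.71). Over wild type Mitf, a melanocyte transcription factor, gave 2.85 in 27G5 and 2.07 in 27H10. The clone difference of Pramel7 there was the largest of all probes tested, so no other gene could match it. The genes nearest to Pramel6 were Asgr2 (0.21), Magea8 (0.22), Magea1 (0.24), Magea3 (0.29) and Magea5 (0.31). Asgr2, a subunit of the liver asialoglycoprotein receptor, gave 2.12 and 0.62 over wild type, and Magea8, a melanoma antigen gene, gave 1.94 and 0.49. The distances for Pramel6 were the smaller ones, and its ratios are also the smaller.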

How the data were processed

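Gene expression was measured on 12 Agilent 2-colour arrays, and the deposited files hold mean signal and median background intensity per spot, per the file headers from Agilent Feature Extraction 9.5.1.1 (8 arrays) and 9.1.3.1 (4 arrays with wild-type RNA). They also hold a deposited log10 ratio of the software's own normalised signals, and the authors' series table is on the log2 scale. Here limma 3.58.1 (with statmod 1.5.0, under R 4.3.3) was used; intensities were background-corrected (normexp, offset 50, which draws the ratios of dim probes towards 0) and normalised by loess within arrays. The arrays of a dye swap were given a common sign and averaged to 6 ratios of 7 RNAs. Each comparison had a coefficient in one limma fit with 3 residual degrees of freedom. The fit covered 30166 probes well above background on 2 or more arrays, with Benjamini-Hochberg adjustment. It was also run on simulated ratios drawn independently of each other. The real ratios share RNAs, so that run does not show how the fit does on them. The labels name no separate cultures, so p measures the spread between these 2 clones, pooled over the 3 comparisons and moderated by the spread of all probes. The p value of a comparison therefore does not rest on its own 2 ratios alone, over wild type as in the Dnmt-labelled RNA. The spread of the single wild-type RNA is left out. Signals by RNA were scaled between arrays (Aquantile). Gene lists use the brightest tested probe of a gene. Named genes were all members, the targeted genes, the 5 nearest genes to a member whose clones differ by over 1 log2 unit, and up to 3 genes of a list by moderated statistic; Uhrf1, Stat3 and the relatives outside the rule were named for their role after values were seen. The members and lists were chosen with earlier results of these data known. Alternatives changed the background, normalisation, filter, probe choice, spread, block, clones or dye orientation. Fitting each comparison on its own 2 ratios was added after seeing the data. Leaving out a clone removed its ratio from the comparison in question, and the residual spread then came from the other comparisons. The number of arrays limits the precision. The dye-swap number marks dye orientation, and the clone is what pairs ratios. The number of unused per-sample columns was 0.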

Additional observations from a re-analysis of the deposited data

Results flagged for a closer look

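Pramel12 was marked for a closer look because its clones moved in opposite directions over wild type: the difference, 27G5 minus 27H10, was -0.56, with both arrays of clone 27G5 below 0 and both of clone 27H10 above it. The difference was not tested. Over 7 alternative settings of background, normalisation, source of the ratio or dye orientation it ranged from -0.62 to -0.50.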

How the results depend on the processing

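The count of members called over wild type was 7. It was 3 with shared RNAs modelled, and 6 or 7 under the other alternatives that kept both clones. Pramel13, Pramel37 and Pramel39 were called over wild type under every alternative run. In the Dnmt1-labelled RNA the count of 2 became 5 with the scanner software's log ratio, 5 with the authors' series table and 0 with shared RNAs modelled. It was 1 on the arrays numbered 1 and 3 on the arrays numbered 2 (with Pramel12). With each comparison on its own 2 ratios it was 0. There 0 of all 30166 probes were called, against 6550 in the main fit. In the Dnmt3a,3b-labelled RNA the count of 2 became 4 with the scanner software's log ratio, 4 with the authors' table, 4 on its own 2 ratios, 3 with eBayes trend and robust (with Pramel7, adjusted p = 0.0440) and 0 with shared RNAs modelled; on the arrays numbered 1 the 2 were Pramel37 and Pramel7 (adjusted p = 0.0296) in place of Pramel39. Counts for fits with 1 clone's ratio left out are not given, because the comparison then rests on 1 ratio. With the clone as a replicate block the counts were 6, 2 and 2, and Pramel4 lost its call (adjusted p = 0.0535). Of the mean ratios, those that turned sign were near 0. Pramel12 over wild type ran from -0.20 (without 27H10) to 0.36 (without 27G5) when 1 clone was left out and was -0.080 on the arrays numbered 2. Pramel48 in the Dnmt1-labelled RNA ran from -0.044 (without 27G5) to 0.0098 (without 27H10) and was 0.021 on the arrays numbered 1. In the Dnmt3a,3b-labelled RNA it ran from -0.088 (without 27G5) to 0.059 (without 27H10), and was 0.016 without background subtraction and 0.038 on the arrays numbered 2. The clone difference over wild type ran from 2.05 to 2.32 for Pramel7 and from 1.02 to 1.32 for Pramel6, but in the Dnmt1-labelled RNA from -0.11 to 0.88 and from -0.55 to 0.46. The causes of these changes were not tested. Modelling shared RNAs lowered the calls over all probes from 11555, 6550 and 6292 to 2566, 671 and 550. Signal near background limits Pramel4, Pramel48 and, in wild type and the Dnmt1-labelled RNA of clone 27H10, Pramel6.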

Other observations

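After their likeness to Pramel6 was seen, all Magea genes on the array were looked at; they encode melanoma antigens and lie on the X chromosome. Of 8 genes with a probe, 7 were tested, and 5 of these were higher in clone 27G5 than in clone 27H10 by more than 1 log2 unit over wild type: Magea1 (1.94 and 0.43), Magea3 (2.11 and 0.38), Magea5 (1.56 and 0.36), Magea6 (1.63 and 0.37) and Magea8 (1.94 and 0.49). None of the 5 passed the test over wild type (limma adjusted p from 0.0527 to 0.0760). Of all probes, 0.162% (49 of 30166) had clones that differed by more than 1 log2 unit there, in either direction. Magea1, Magea3, Magea5 and Magea8 were found because their ratios lay near those of Pramel6. Their clone differences follow in part from that choice, so the count is not separate support. Magea7 gave 0.13 and -0.01, and Magea9 gave 0.25 and 0.11. These genes are close copies of each other, so 1 transcript could give the signal of several probes, which was not tested.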
